A study of Mus musculus with 20 samples.

Results

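The endogenous pluripotency network was followed as 35 mouse genes that mark or maintain the undifferentiated state and that the reprogramming vectors did not carry. The 35 were listed by symbol from their known roles, with earlier results of these data known, and all 35 were found among the 55573 genes of the deposited table. The libraries came from 4 clonal lines of mouse induced pluripotent stem cells (iPSCs), wild type WT#1-4 and WT#20D-17 and knockout Nox4-/- #5-8 and Nox4-/- #5-23. By the study's methods, embryonic fibroblasts of wild type and Nox4-/- mice were reprogrammed with retroviral Oct4, Sox2, Klf4 and c-Myc, and single colonies were picked as clones. The methods name WT#1-4 and both Nox4-/- lines but not WT#20D-17, which the labels give as wild type iPSCs without its vectors or origin. RNA was sequenced on day 0, from cells kept with LIF on mitomycin C-treated fibroblast feeders, and on days 3, 5, 7 and 14 of embryoid body differentiation, which began as hanging drops without LIF and went on as attached cultures. Each line gave 1 library on each day, 20 in all, so each genotype rests on 2 lines and the days of a line are not replicates of each other.

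In a mouse pluripotent cell, Oct4 and Sox2 bind together at enhancers and keep on a set of naive state factors, among them Nanog, Esrrb, Tfcp2l1, Klf2, Klf5, Tbx3 and Prdm14, which in turn keep on each other and the Oct4 and Sox2 genes. LIF feeds into this circuit through Stat3, and naive factors are known to be lost soon after LIF is withdrawn, before germ layer genes rise. Retroviral transgenes are known to be silenced in fully reprogrammed cells, in which the endogenous network carries the state on its own. Reads of the vector and endogenous transcripts of Oct4, Sox2, Klf4 and c-Myc cannot be told apart in a table of gene counts, which is why the 35 genes outside the vectors were read separately.

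Library totals ran from 20294968 to 27708023 counts, and 3 counts, the limit that a count of 0 allows, corresponded to 0.109 to 0.157 counts per 1000000 (CPM). Nox4 read 7, 22, 21, 12 and 3 counts in WT#1-4 over days 0, 3, 5, 7 and 14. It read 64, 165, 188, 203 and 56 in WT#20D-17, then 0, 2, 0, 1 and 0 in Nox4-/- #5-8, and 0 on all 5 days in Nox4-/- #5-23. WT#20D-17 stood apart from the other 3 lines in what follows, and results that rest on it are given with and without it. Pou5f1, which encodes Oct4, was at 1278 to 5760 CPM in the 15 libraries of the other 3 lines, endogenous and vector reads together. In WT#20D-17 it went from 1136 CPM on day 0 to 21.3 CPM on day 14. In bulk RNA, fewer cells that express a gene and less RNA per cell cannot be told apart.

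The upstream 250 bases of 4 members are shown because they cover the 2 patterns that recur below. Nanog and Zfp42 were strong in WT#20D-17 and near or at 0 counts elsewhere, while L1td1 and Nr0b1 were well expressed in every line on day 0. Sequences are from RefSeq on GRCm38.p6, written 5′ to 3′ on the strand of the gene. Capitals mark the Oct-Sox composite site (CATTGT, any base, then ATGC, on the reverse strand) in Nanog, the octamer ATTTGCAT and the Klf site GGGTGTGG (on the reverse strand) in Zfp42, and TATAAA in Nr0b1. No searched motif was found in L1td1, which is shown without capitals.
Nanog, chr6:122707239-122707488, plus strand: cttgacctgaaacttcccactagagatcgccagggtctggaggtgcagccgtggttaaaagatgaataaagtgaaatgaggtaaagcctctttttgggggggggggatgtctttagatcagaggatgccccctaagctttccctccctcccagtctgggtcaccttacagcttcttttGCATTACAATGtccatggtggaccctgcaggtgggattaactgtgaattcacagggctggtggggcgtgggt
Zfp42, chr8:43307010-43307259, minus strand: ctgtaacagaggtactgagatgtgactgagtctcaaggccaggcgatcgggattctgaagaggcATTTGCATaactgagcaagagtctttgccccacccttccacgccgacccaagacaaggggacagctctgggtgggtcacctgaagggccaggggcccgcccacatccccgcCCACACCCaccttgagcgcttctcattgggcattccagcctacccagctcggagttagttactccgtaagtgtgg
L1td1, chr4:98726504-98726753, plus strand: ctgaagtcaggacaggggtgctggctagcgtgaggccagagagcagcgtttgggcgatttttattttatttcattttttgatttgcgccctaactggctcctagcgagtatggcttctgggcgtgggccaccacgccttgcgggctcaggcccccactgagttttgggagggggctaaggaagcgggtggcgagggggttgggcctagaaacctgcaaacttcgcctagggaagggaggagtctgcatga
Nr0b1, chrX:86191525-86191774, plus strand: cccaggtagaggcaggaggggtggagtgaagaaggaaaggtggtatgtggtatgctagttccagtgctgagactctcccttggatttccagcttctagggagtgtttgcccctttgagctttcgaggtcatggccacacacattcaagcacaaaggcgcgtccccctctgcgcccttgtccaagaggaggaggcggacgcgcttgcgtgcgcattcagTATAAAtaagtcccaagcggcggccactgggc

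Windows of this kind were at hand for 22 of the 35 members. The Oct-Sox composite was found in the upstream 250 bases of Nanog alone among them, 72 to 62 bases before the start, and in 0.0629% of 27025 genes. The octamer and the Klf site were found in Zfp42 alone, against 1.81% and 3.68% of all genes, and CAAGGTCA, the letters read by Esrrb and Nr5a2, in 0 of 22 members against 1.51%. TATAAA was found in Tfcp2l1, Nr0b1, Nr5a2 and Jarid2, against 14.3% of all genes. Both strands were searched, and a TATAAA can overlap other motifs. Counted over the upstream 250 bases, the median was 11 CpG in 28 member windows and 6 in 32851 windows of all genes. By that count 17.9% of member windows held under 5 CpG against 44.4% of all windows.

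On day 0 the whole network was counted in WT#20D-17 and a part of it in the other 3 lines. All 35 members were at 1 CPM or more in WT#20D-17, against 20 in WT#1-4, 21 in Nox4-/- #5-8 and 19 in Nox4-/- #5-23. The CPM of the 35 members summed to 6137 in WT#20D-17 on day 0, against 858, 1443 and 1126 in those 3 lines. WT#20D-17 held the highest level of 32 members on day 0, and of 22 members on all 5 days. Among the 34 members with a mean of at least 1 CPM it was highest on all 5 days for 21, against 16.3% of the 14579 genes at such a mean. No member was lowest in WT#20D-17 on all 5 days, against 15.2% of those genes. The mean was taken over all 20 libraries. Members such as Zfp42, Esrrb, Dppa3 and Dppa4, at or near 0 counts in the other lines, reached it only through WT#20D-17. Their place among the 21 was therefore fixed by that cut. Zfp42, Dppa3, Dppa4 and Prdm14 were at or under 3 counts in each of the 15 libraries of the other lines.

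**Figure D1:**
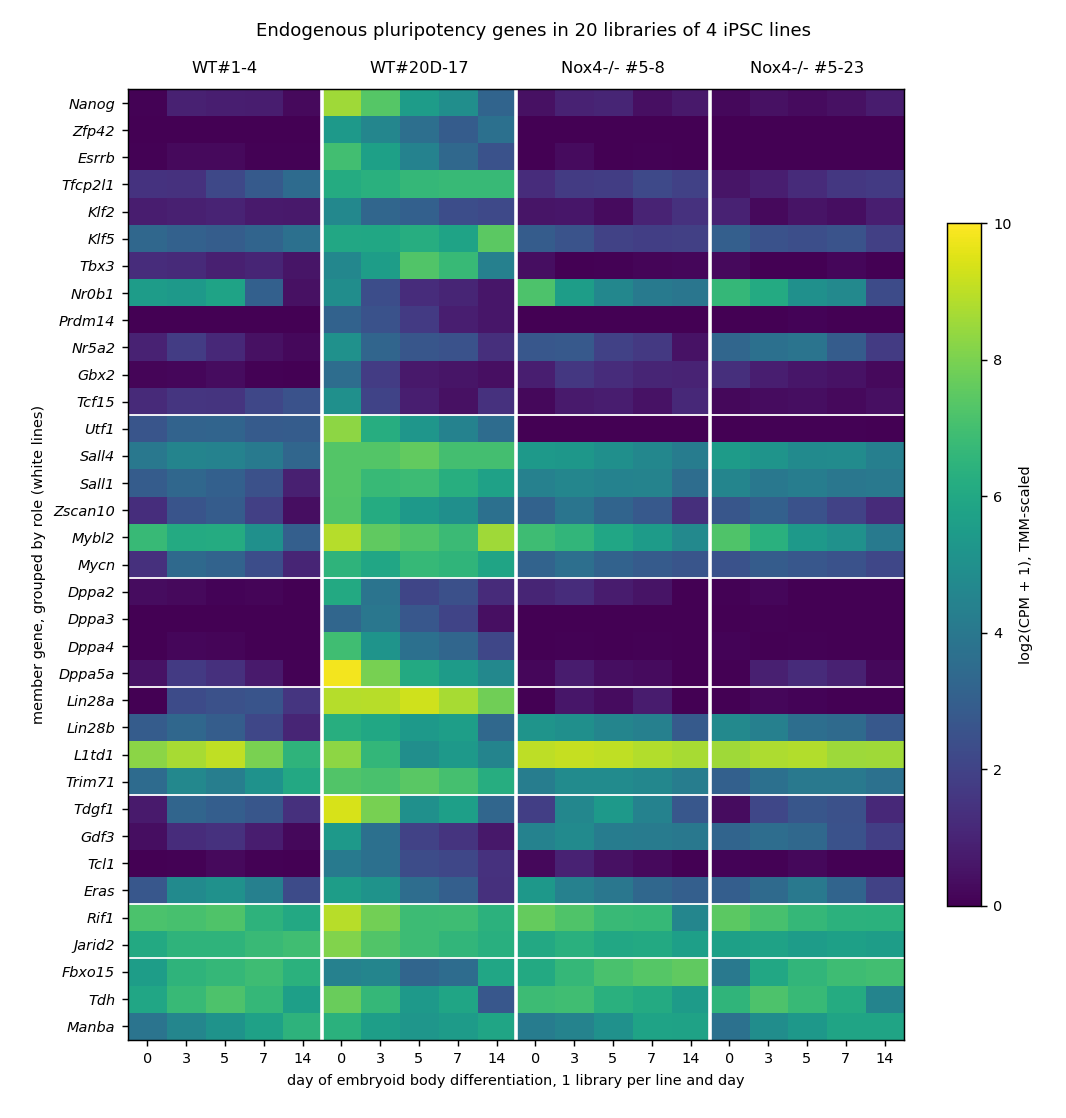
Levels of the 35 members in all 20 libraries, as log2(CPM + 1) in colour, with members in rows by role and libraries in columns by line and day. The colour runs from dark at 0 to bright at high levels. The WT#20D-17 column of day 0 is brighter than the other day 0 columns for 32 of the 35 rows, and the rows of L1td1, Fbxo15, Tdh, Rif1, Jarid2 and Mybl2 are bright in every line.

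Among the naive state transcription factors, Nanog, the homeodomain factor that stabilises self-renewal, was at 383, 164, 45.2, 30.0 and 8.40 CPM in WT#20D-17 over days 0, 3, 5, 7 and 14. In WT#1-4 it was at 0.0380, 0.874, 0.783, 0.720 and 0.198 CPM, in Nox4-/- #5-8 at 0.359, 0.923, 1.03, 0.337 and 0.603, and in Nox4-/- #5-23 at 0.149, 0.367, 0.227, 0.355 and 0.693. WT#20D-17 was therefore above every library of the other lines on every day, day 14 included, and the 3 other lines overlapped each other around or under 1 CPM. On day 0 its Nanog level was 1065-fold that of the next line. Zfp42 (Rex1), a zinc finger marker of the naive state, was at 41.6, 23.0, 11.5, 6.53 and 11.9 CPM in WT#20D-17 and at 0 counts in the other 15 libraries, at least 347-fold lower on day 0 against a floor of 3 counts. Esrrb, the orphan receptor that can stand in for Nanog, was at 123 CPM on day 0 and 4.78 CPM on day 14 in WT#20D-17, and did not exceed 5 counts elsewhere. Prdm14, a repressor of differentiation and DNA methylation genes, went from 7.79 to 0.525 CPM in WT#20D-17 and was at 0 counts in all 3 other lines on day 0.

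The remaining naive factors were detectable in the other lines at lower levels. Tfcp2l1, a LIF target, was 39.5-fold, Klf2 25-fold, Tbx3 16.9-fold and Klf5 6.90-fold higher in WT#20D-17 than in the next line on day 0. Gbx2, a LIF target with a homeodomain, was 7.07-fold higher, Nr5a2, a nuclear receptor that binds the Oct4 promoter, 3.71-fold, and Tcf15, which marks cells poised to leave the naive state, 24.2-fold. Nr0b1 (Dax1), an orphan receptor that interacts with Oct4, went the other way and stood on day 0 at 29.0 CPM in WT#20D-17, 45.4 in WT#1-4, 147 in Nox4-/- #5-8 and 99.6 in Nox4-/- #5-23.

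The 4 Dppa genes, expressed in pluripotent cells and the germ line, summed to 1096 CPM in WT#20D-17 on day 0 and to between 0.112 and 1.16 CPM in the other lines. Dppa5a, also called Esg1, was at 900, 247, 67.2, 43.5 and 24.4 CPM over the days in WT#20D-17 and did not exceed 2.23 CPM in any other library. On day 0 it was 2154-fold and Dppa2 63.5-fold higher in WT#20D-17 than in the next line. These folds rest on low levels, 0.418 CPM for Dppa5a in WT#1-4 and 1.04 CPM for Dppa2 in Nox4-/- #5-8. Dppa3 (Stella), which protects maternal methylation marks, was at 8.85 CPM in WT#20D-17 and 0 counts elsewhere on day 0, at least 73.8-fold lower. Dppa4, the partner of Dppa2 on chromatin, was at 121 CPM in WT#20D-17 and at 0, 0 and 2 counts in WT#1-4, Nox4-/- #5-8 and Nox4-/- #5-23.

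**Figure D2:**
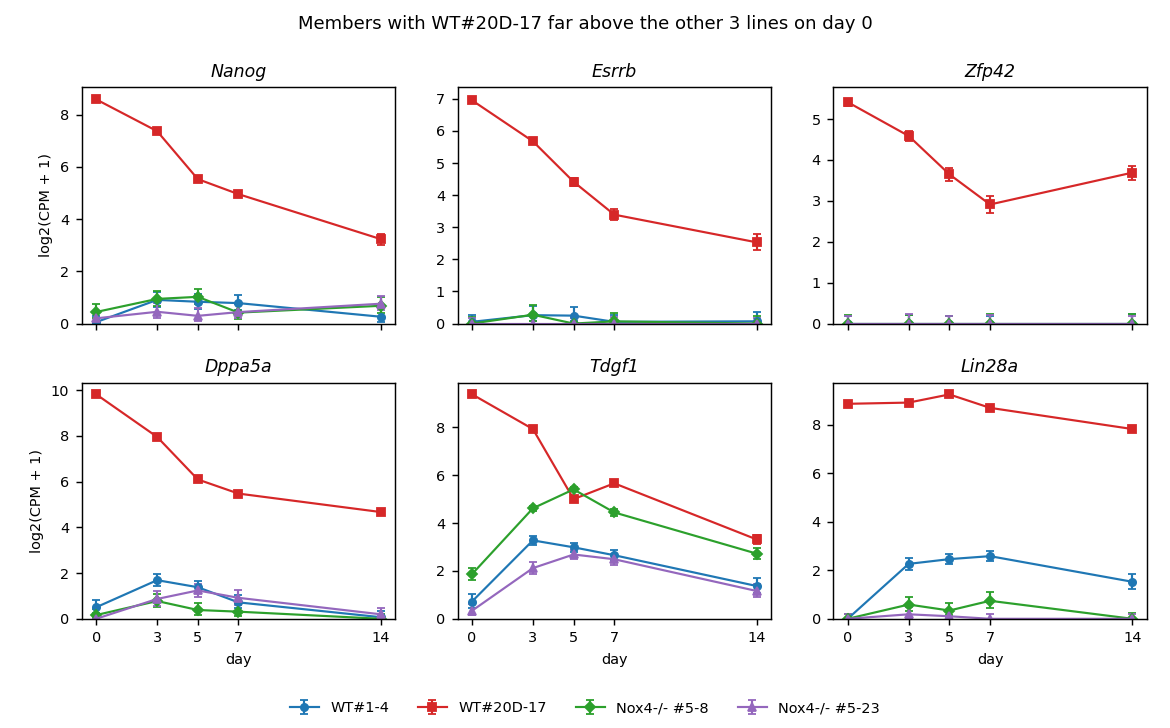
Levels of Nanog, Esrrb, Zfp42, Dppa5a, Tdgf1 and Lin28a by day in each line, as log2(CPM + 1) on the vertical axis with 95% Poisson intervals of the counts as bars. WT#20D-17 starts far above the other 3 lines in each panel, and it stays above them on later days except for Tdgf1 on day 5, at 31.1 CPM against 41.5 CPM in Nox4-/- #5-8.

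RNA-binding members split between the 2 patterns. Lin28a, which blocks let-7 maturation, was at 468, 485, 613, 417 and 227 CPM in WT#20D-17 over the 5 days. It was at 0, 3.81, 4.51, 5.01 and 1.88 CPM in WT#1-4, reached 0.674 CPM in Nox4-/- #5-8, and did not exceed 3 counts in Nox4-/- #5-23. On day 0 all 3 of these lines were at 0 counts, at least 3903-fold below WT#20D-17. Its paralog Lin28b was only 2.13-fold higher in WT#20D-17 than in the next line, at 75.5 CPM against 35.4 in Nox4-/- #5-8, 25.2 in Nox4-/- #5-23 and 6.50 in WT#1-4. Trim71, a let-7 target and ubiquitin ligase, was 8.68-fold higher in WT#20D-17. L1td1, which derives from a LINE-1 element and binds RNA, was at 310 CPM in WT#20D-17, 308 in WT#1-4, 510 in Nox4-/- #5-8 and 382 in Nox4-/- #5-23, so WT#20D-17 was not the highest line on that day.

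Signalling members differed in the same uneven way. Tdgf1 (Cripto), the Nodal co-receptor, was 254-fold and Tcl1, a co-activator of Akt, 101-fold higher in WT#20D-17 than in the next line on day 0. For both that line was Nox4-/- #5-8, at 2.63 CPM for Tdgf1 and, near the floor, 0.160 CPM for Tcl1. Gdf3, a TGF-beta family ligand, was at 41.5 CPM in WT#20D-17, 20.7 in Nox4-/- #5-8, 8.25 in Nox4-/- #5-23 and 0.304 in WT#1-4. Eras, a Ras protein of embryonic stem cells, was at 45.9 CPM in WT#20D-17 and 39.0 in Nox4-/- #5-8, against 5.51 and 7.03 in WT#1-4 and Nox4-/- #5-23.

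Among other DNA-binding factors, Utf1, which binds bivalent promoters, was 59.2-fold, Zscan10, a partner of Oct4 and Sox2, 19.8-fold and Mycn 11-fold higher in WT#20D-17 than in the next line. Sall1 was 7.13-fold, Sall4, which supports Oct4 expression, 3.61-fold, and the cell cycle factor Mybl2 3.11-fold higher. The chromatin factors Jarid2, a subunit of polycomb complex PRC2, and Rif1, a replication timing and telomere protein, were 4.12-fold and 2.46-fold higher. Tdh, the threonine dehydrogenase on which mouse stem cells depend, was 1.83-fold higher and the lysosomal mannosidase Manba 4.70-fold. Fbxo15, an F-box gene used as a reprogramming reporter, was at 20.3 CPM in WT#20D-17, 46.5 in WT#1-4, 67.2 in Nox4-/- #5-8 and 15.5 in Nox4-/- #5-23.

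**Figure D3:**
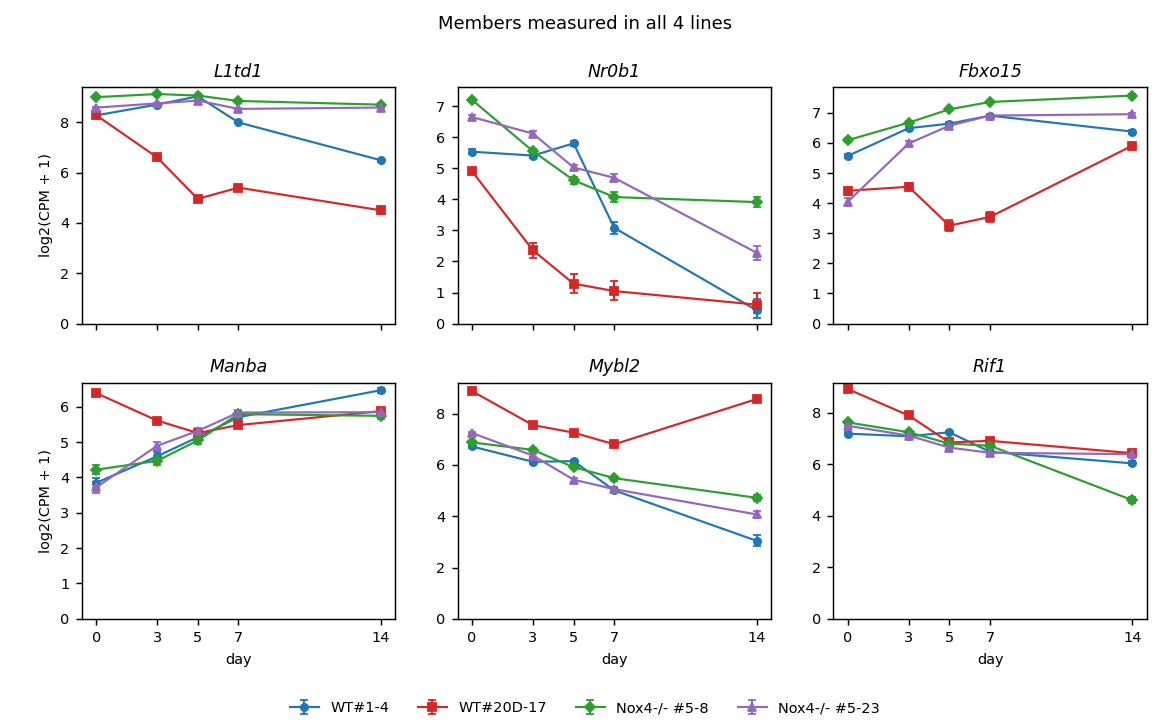
Levels of L1td1, Nr0b1, Fbxo15, Manba, Mybl2 and Rif1 by day in each line, as log2(CPM + 1) on the vertical axis with 95% Poisson intervals of the counts as bars. All 4 lines lie within a few log2 units of each other on day 0, and L1td1 stays between 369 and 557 CPM in both Nox4-/- lines while it is at 21.6 CPM on day 14 in WT#20D-17.

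The order of loss was read in WT#20D-17, in which every member could be followed from at least 1 CPM. By day 3, 18 of 35 members had reached 50% or less of their day 0 level, against 7.18% of the 13937 genes with at least 1 CPM on day 0 in that line. Counting each gene from the first day it reached that level, whatever its later level, there were 25 members by day 5, 27 by day 7 and 30 by day 14, against 16.7%, 20.1% and 29% of all genes. On day 14 itself 27 were at or below 50%, against 25.2%, since Fbxo15, Mybl2 and Manba stood higher again. The median level left was 49.0% on day 3, 25.8% on day 5, 19.8% on day 7 and 7.58% on day 14, against 98.3%, 96.6%, 95.6% and 89.4% over all genes. These are single libraries and carry no test, and their intervals cover counting error only.

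Tcf15 was the first to be lost, from 31.3 CPM on day 0 to 3.02 CPM on day 3, at which point it alone was at or below 10%. Dppa2, Dppa4, Dppa5a, Tdgf1, Gdf3, Nr0b1, L1td1 and Gbx2 had reached 10% or less by day 5, and Nanog, Esrrb and Utf1 by day 7. Nanog, Esrrb and Klf2 had passed 50% by day 3, whereas Zfp42, Prdm14 and Tcl1 passed it on day 5. Dppa3 stood at 8.85 CPM on day 0, 14.6 CPM on day 3 and 3.11 CPM on day 7. Lin28a, Lin28b and Trim71, which act on one RNA pathway around let-7, passed 50% only on day 14.

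In all, 5 members, naive factors among them, never reached 50% of day 0 in WT#20D-17, namely Tfcp2l1, Klf5, Tbx3, Sall4 and Mycn. Tfcp2l1 was at 70.5, 80.6, 99.1, 106 and 105 CPM over the 5 days. Tbx3, which also acts in endoderm and limb development, went from 23.8 to 156 CPM on day 5 and was back at 19.7 CPM on day 14. Klf5, which is also an epithelial factor, stood at 63.7 CPM on day 0 and 177 CPM on day 14. Summed markers of endoderm, mesoderm and fibroblasts stood higher on the later days in that line, and their part in these levels was not tested. The summed level of 6 endoderm markers (Afp, Sox17, Foxa2, Gata4, Gata6, Ttr) went from 129 to 1738 CPM, that of 7 mesoderm markers from 52.2 to 774 CPM, and that of 12 fibroblast markers from 87.1 to 3312 CPM. Acta2 and Pdgfra, at 410 and 297 CPM on day 14, made up most of the mesoderm sum. Eomes fell from 34.8 to 4.57 CPM, T from 3.11 to 0.105, Mixl1 from 1.48 to 0.210 and the fibroblast marker Thy1 from 14.1 to 2.57. The other mesoderm and fibroblast markers stood higher on day 14 than on day 0. Neuroectoderm markers summed to 74.2 CPM on day 0 and 42.1 CPM on day 14.

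**Figure D4:**
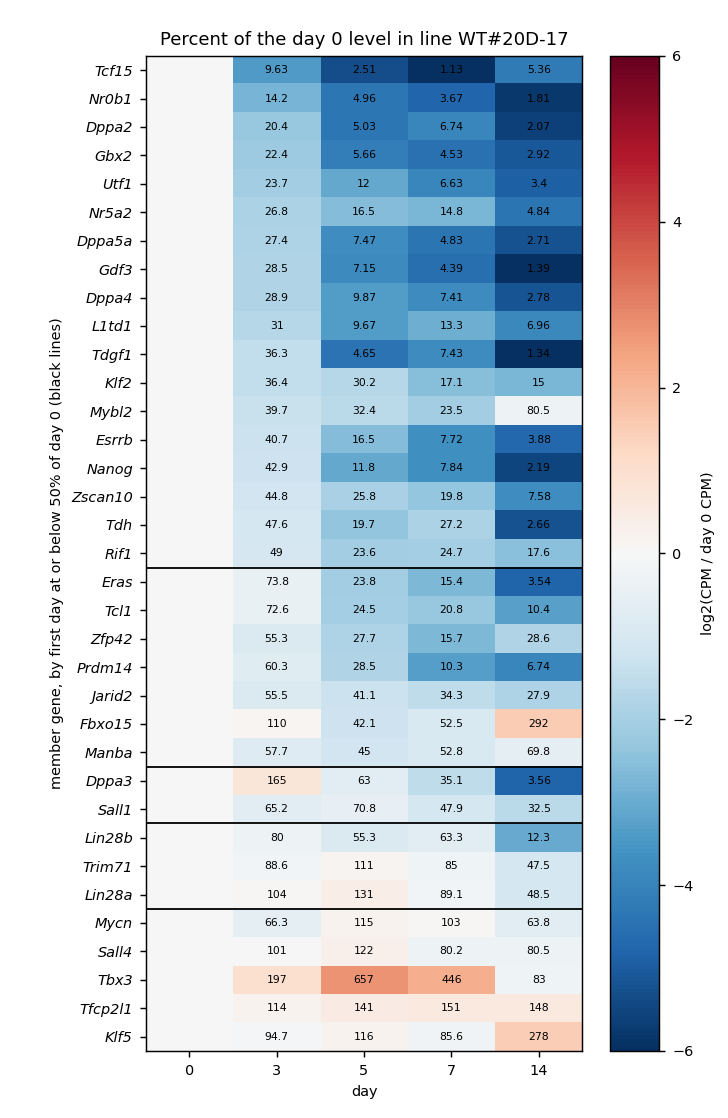
Level of each member in WT#20D-17 on days 3, 5, 7 and 14 as a percent of its own day 0 level (printed numbers) and as log2 of that ratio (colour, blue lower and red higher), with members in rows ordered by the first day at or below 50%. The top block, at or below 50% on day 3, holds 18 members, and the last 5 rows are Tfcp2l1, Klf5, Tbx3, Sall4 and Mycn.

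In the other 3 lines fewer of the members that could be followed reached 50%, and some did so before WT#20D-17. Lin28b reached it on day 5 in Nox4-/- #5-23, and Klf5 and Sall4 reached it in both Nox4-/- lines and Tbx3 in WT#1-4, but never in WT#20D-17. Those at 1 CPM or more on day 0 numbered 20 in WT#1-4, 21 in Nox4-/- #5-8 and 19 in Nox4-/- #5-23. By day 3, 0 of 20, 1 of 21 and 0 of 19 of them had reached 50%, against 2.37%, 2.38% and 2.53% of all such genes, the 1 being Nr0b1. By day 14 there were 8 of 20, 11 of 21 and 12 of 19, against 26.8%, 20.7% and 20.1%. The median level left on day 14 was 66.5%, 42.6% and 41.5%, against 86.6%, 95.7% and 91.6% over all genes. On day 3 the members' median was above day 0, at 143%, 116% and 112%. Endoderm markers summed to at most 4.55 CPM and mesoderm markers to at most 58.0 CPM in these 15 libraries, and fibroblast markers to 47.2 to 373 CPM. Neuroectoderm markers went the other way, with sums of 154 to 542 CPM in these libraries against 42.1 to 105 CPM in WT#20D-17.

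Only Lin28b, Nr0b1, Zscan10 and Rif1 were at or below 50% of day 0 on day 14 in all 4 lines, 4 of the 16 members with at least 1 CPM on day 0 in every line, against 3.8% of 11433 such genes. Nr0b1 made the deepest fall of the 4, to 0.347 CPM in WT#1-4, 0.525 in WT#20D-17, 14.1 in Nox4-/- #5-8 and 3.86 in Nox4-/- #5-23. It was at or under 50% on day 3 in WT#20D-17 and Nox4-/- #5-8, on day 5 in Nox4-/- #5-23 and on day 7 in WT#1-4, where it had still been at 54.9 CPM on day 5.

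The change over the course was tested across 19240 genes with edgeR's quasi-likelihood test, with each line as a block and Benjamini-Hochberg adjustment, at an adjusted p under 0.01. All 35 members passed the filter on low counts. Zfp42, Esrrb, Dppa3, Dppa4, Prdm14 and Tcl1 passed it only through WT#20D-17. Between day 0 and day 14, 15 members fell and 2 rose, 17 in all, against 26.7% of all genes tested (13% lower, 13.6% higher). Since the line is a block, the p-values rest on the spread left after line and day in single libraries, and describe only these 4 clones.

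The largest falls by the fitted fold were those of Dppa2, Nr0b1 and Dppa4. Dppa2 fell by 5.03 ± 0.81 on the log2 scale (SE, edgeR adjusted p = 0.00015). It went from 65.9, 13.4, 3.31, 4.44 to 1.37 CPM in WT#20D-17, and from 1.04, 1.38, 0.688, 0.433 to 0 in Nox4-/- #5-8. In WT#1-4 it stood at 0.266, 0.199, 0.0746, 0.114 and 0 CPM, and in Nox4-/- #5-23 at 0.0372, 0.137, 0, 0 and 0. Its day 14 libraries were thus at 0 counts in all lines but WT#20D-17, and a fitted fold on such counts depends on the prior count used. Nr0b1 fell by 4.74 ± 0.78 (edgeR adjusted p = 0.000177), with day 0, 3, 5, 7 and 14 levels of 147, 45.9, 23.5, 15.8 and 14.1 CPM in Nox4-/- #5-8 and 99.6, 68.5, 31.6, 24.9 and 3.86 CPM in Nox4-/- #5-23. It ran at 45.4, 41.5, 54.9, 7.47 and 0.347 CPM in WT#1-4 and at 29.0, 4.13, 1.44, 1.06 and 0.525 CPM in WT#20D-17, so day 14 was the lowest day in all 4 lines and did not overlap day 0.

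Dppa4 fell by 4.53 ± 0.94 on the log2 scale (edgeR adjusted p = 0.00113), on levels of 121, 34.9, 11.9, 8.97 and 3.36 CPM in WT#20D-17. In the other lines it read 0, 3, 3, 0 and 0 counts in WT#1-4, 0, 1, 0, 1 and 0 in Nox4-/- #5-8, and 2, 0, 1, 0 and 0 in Nox4-/- #5-23. The calls of Dppa4, Dppa3 and Esrrb rest on WT#20D-17, since the other lines stood near 0 counts throughout. Lin28b, Nr5a2, Rif1, Zscan10, Tdh, Eras, Mybl2, Gbx2, Sall1 and Sall4 fell as well, by 0.88 (Sall4) to 3.33 (Nr5a2), with the lowest adjusted p for Lin28b, which fell by 2.54 ± 0.25 (edgeR adjusted p = 3e-06).

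Fbxo15 and Tfcp2l1 rose. Fbxo15 rose by 1.64 ± 0.46 on the log2 scale (edgeR adjusted p = 0.00936), from 46.5, 89.0, 98.9, 119 to 82.2 CPM in WT#1-4 and from 20.3, 22.4, 8.54, 10.7 to 59.2 CPM in WT#20D-17. In Nox4-/- #5-8 it ran at 67.2, 101, 138, 164 and 190 CPM and in Nox4-/- #5-23 at 15.5, 62.3, 94.3, 119 and 123 CPM, higher on day 14 than on day 0 in all 4 lines. The gene overlaps Timm21 on the opposite strand, and upper quartile scaling left its call out. Tfcp2l1 rose by 1.57 ± 0.32 (edgeR adjusted p = 0.00105), in WT#1-4 through 1.79, 1.71, 3.47, 6.14 and 10.3 CPM, in Nox4-/- #5-8 through 1.44, 2.35, 2.52, 3.56 and 2.83, and in Nox4-/- #5-23 through 0.483, 0.779, 1.32, 2.09 and 2.26. Day 14 was above day 0 in each line, WT#20D-17 included.

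Manba had the next largest positive estimate, 1.32 ± 0.43 (edgeR adjusted p = 0.0202), and did not pass. Its levels were 13.4, 23.2, 34.2, 51.2 and 87.5 CPM in WT#1-4, 17.6, 21.1, 32.0, 54.3 and 52.5 in Nox4-/- #5-8, 12.1, 28.7, 38.8, 56.1 and 56.5 in Nox4-/- #5-23, and 82.7, 47.8, 37.2, 43.7 and 57.7 in WT#20D-17. It thus went up in 3 lines and down in WT#20D-17. Nanog, at −1.68 ± 1.10 (edgeR adjusted p = 0.236), did not pass over the 4 lines either, and Lin28a stood at −0.02 ± 0.83 (edgeR adjusted p = 0.988). Both were lower on day 14 than on day 0 in WT#20D-17, whereas Nanog was higher on day 14 than on day 0 in the other 3 lines and Lin28a in WT#1-4, with 0 counts on both days in the Nox4-/- lines.

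**Figure D5:**
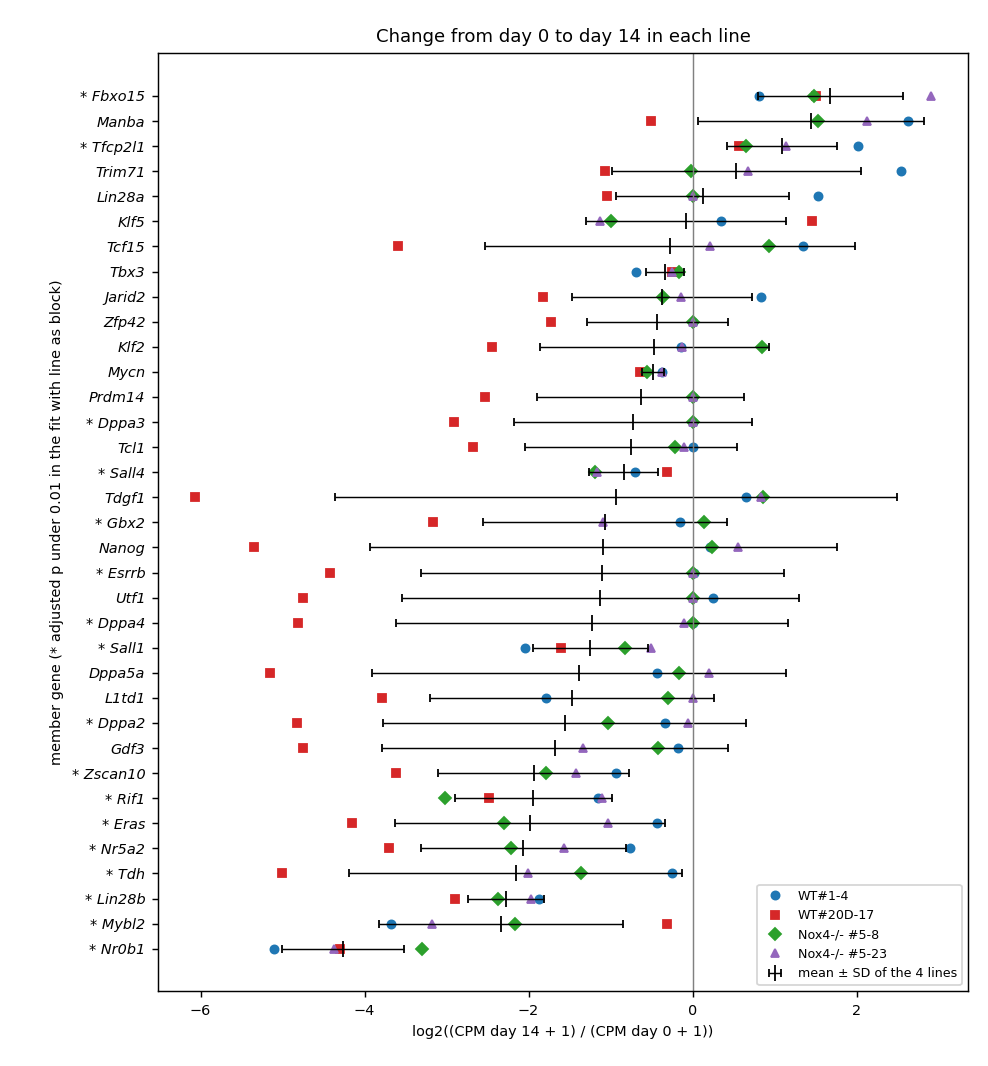
Change of each member from day 0 to day 14 in each line, as log2((CPM on day 14 + 1)/(CPM on day 0 + 1)) on the horizontal axis, with points for lines, the mean over lines with its SD (n = 4) and an asterisk for the 17 members past the test. The WT#20D-17 point lies left of the others for most members that start high in that line, and Fbxo15 and Tfcp2l1 lie right of 0 in all 4 lines.

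Without WT#20D-17, 30 members passed the filter on low counts and 15 changed, 9 lower and 6 higher, against 31.3% of 18653 genes. Tcl1 was among the 30, because the filter asks for fewer libraries when a wild type line is left out. The 6 that rose in this fit were Tdgf1, Lin28a, Tfcp2l1, Fbxo15, Tcf15 and Manba, of which Lin28a was higher on day 14 in WT#1-4 alone, and Tdgf1, Lin28a, Tcf15 and Manba were lower on day 14 than on day 0 in WT#20D-17. Over all 5 days together, 12 of these 30 changed without WT#20D-17, against 21.5% of genes, and 9 members changed in the fit of 4 lines (Dppa2, Dppa4, Lin28b, Tfcp2l1, Nr0b1, Sall4, Nr5a2, Zscan10 and Rif1), against 16.4% of all genes. With no block for the line, 1 member (Rif1) changed over the days and 2 (Nr0b1 and Rif1) between day 0 and day 14, against 5.17% and 12.5% of genes.

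Single steps gave no calls among the members by edgeR. Between day 0 and day 3, 0 of 35 passed, against 0.161% of genes, and 0 by DESeq2, against 0.669%. By edgeR 1 was at an unadjusted p under 0.05, against 2152 of 19240 genes. Between day 3 and day 7 there were again 0, against 0% of genes, and 0 by DESeq2, against 1.09%. By edgeR 14 were at an unadjusted p under 0.05, against 3301 of 19240 genes. Between day 7 and day 14 edgeR called 0, against 0.0104% of genes, while DESeq2 called 2, Lin28b and Zscan10, against 1.06%. By edgeR 9 were at an unadjusted p under 0.05, against 3176 of 19240 genes.

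The study asked how loss of Nox4, an NADPH oxidase that makes hydrogen peroxide, bears on the cells. With 2 lines a genotype, no member differed between genotypes on day 0 by edgeR at an adjusted p under 0.01, against 0.0104% of genes. At an unadjusted p under 0.05 there were 12, against 1574 of 19240 genes, and DESeq2 called 8, against 0.868% by that tool. On day 14 the count by edgeR was 0, against 0.0156% of genes. There 8 were at an unadjusted p under 0.05, against 4064 of 19240 genes, and DESeq2 called 7, against 3.13%. The genotype by day interaction called 0 members, against 0.0104% of genes. In it 2 were at an unadjusted p under 0.05, against 1391 of 19240 genes, and DESeq2 called 1, Klf5, against 0.598%. Without WT#1-4, which leaves WT#20D-17 as the wild type and assumes that it varies like the other groups, 20 members passed on day 0, 17 on day 14 and 8 in the interaction, against 8.57%, 14.6% and 3.34% of genes. Without WT#20D-17, WT#1-4 is the only wild type line and is likewise assumed to vary like the other groups. In that fit edgeR called 0 on day 0 and 0 in the interaction, against 0.236% and 0% of genes, and 1, Sall1, on day 14, against 0.729%. The median log2 difference of the 30 members tested was 0.68 on day 0, against 0.03 over all genes. Of these members, 20 were higher and 9 lower in the Nox4-/- lines. On day 14 their median was 0.71, against 0.06 over all genes, with 17 higher and 11 lower.

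A comparison of genotypes with the days pooled, by edgeR's exact test, took WT#1-4 against the 2 Nox4-/- lines, and its p-values describe these 15 libraries, since days of a clone are not replicates of a genotype. It called 10 of 35 members, against 5.62% of 33860 genes, 5 of them higher and 5 lower in the Nox4-/- lines, against 1.65% and 3.97%. Utf1 was at 5.24 to 8.35 CPM in WT#1-4 and did not exceed 1 count in any of the 10 Nox4-/- libraries (edgeR adjusted p = 2.6e-59). Lin28a, Tbx3, Tcf15 and Jarid2 were also lower in the Nox4-/- lines, Tcf15 by a log2 difference of −2.58 and Jarid2 by −0.74 (edgeR adjusted p = 4.66e-06 and 0.00156). Gdf3 was higher by 3.93, Gbx2 by 3.09, Nr5a2 by 2.55, Lin28b by 1.79 and Sall1 by 1.67 on the log2 scale (edgeR adjusted p from 7.96e-08 for Gdf3 to 0.00957 for Lin28b). These directions rest on which wild type line is used, since Lin28b, Sall1, Nr5a2 and Gbx2 turned to −1.34, −2.48, −0.82 and −1.58 against WT#20D-17, and Lin28b, Sall1 and Gbx2 to −0.50, −1.56 and −0.64 against both wild type lines. When WT#20D-17 took the place of the other wild type line, 27 members were called, against 25.8% of genes, 25 of them lower in the Nox4-/- lines, and both wild type lines together gave 19, against 12.1%. With the line as the unit edgeR called 0, against 0% of genes, with 6 at an unadjusted p under 0.05, against 1628 of 20229 genes. Utf1 was higher in both wild type lines than in both Nox4-/- lines on all 5 days, at 10.5 to 310 CPM in WT#20D-17.

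The lines themselves were compared over the days in a test chosen after the data were seen. It takes the 5 days of a clone as the spread within a line, so its p-values describe these libraries only. The level of 31 of 35 members differed between the 4 lines, against 51.1% of genes, and Tdh, Rif1, Manba and Eras did not pass. Between the 2 wild type lines 29 members differed, against 39.2% of genes, 26 of them higher and 3 lower in WT#20D-17, against 20.5% and 18.7%. Zfp42, Esrrb, Dppa3, Dppa4, Prdm14 and Tcl1 are among those 26. Since they passed the filter on low counts through WT#20D-17 alone, their direction was fixed by it. The 3 were Nr0b1, L1td1 and Fbxo15, with log2 differences of −2.70 ± 0.68, −2.04 ± 0.51 and −1.97 ± 0.42 (SE, edgeR adjusted p = 0.00312, 0.00296 and 0.000991). Each Nox4-/- line differed from WT#20D-17 in 27 (#5-8) and 28 (#5-23) members, against 43.6% and 44.6% of genes, with the same 3 genes as the members that were higher in the Nox4-/- line, against 20.1% and 20.9%. Far fewer separated the other lines from each other. WT#1-4 differed from Nox4-/- #5-8 in 8 members and from Nox4-/- #5-23 in 9, against 7.67% and 10.9% of genes, and the 2 Nox4-/- lines differed in 1, Dppa2 (log2 difference −4.44 ± 0.79 for #5-23 against #5-8, edgeR adjusted p = 0.00226), against 3.32%. These pairs share lines, so their counts are not independent.

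Several members lie close to each other. Nanog (chr6:122707489-122714633), Dppa3 and Gdf3 sit on chromosome 6 with gaps of 77.2 kb from Nanog to Dppa3 and 16.3 kb from Dppa3 to Gdf3, and Dppa2 and Dppa4 on chromosome 16 are 9.67 kb apart. Gdf3 was counted in the Nox4-/- lines, at 2.66 to 26.4 CPM, where its neighbour Nanog did not exceed 1.03 CPM and Dppa3 1 count. Dppa2 likewise reached 1.38 CPM in Nox4-/- #5-8 with Dppa4 at no more than 1 count.

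Genes of the pluripotent state outside the 35 were divided between lines as well. In a list of 18 such genes, 8 were highest in WT#20D-17 on all 5 days and 3 lowest. Of all genes with a mean of at least 1 CPM, a cut not made in the list, 16.3% were highest and 15.2% lowest. In the test above 17 of the 18 differed between lines, against 51.1% of genes. Between day 0 and day 14, 6 of the 18 fell and 1 rose, against 13% and 13.6% of genes. Of 14 genes of the primed or formative epiblast, the state that follows the naive one, 9 were highest in WT#20D-17 on all 5 days and 1 lowest, against the same 16.3% and 15.2%. Of these 14, 5 fell between day 0 and day 14 and none rose, against 13% and 13.6% of genes. Their summed level went from 2519 to 301 CPM in WT#20D-17 and lay between 689 and 874 CPM in the other 3 lines, where Etv5 alone made up 363 to 560 CPM. There Fgf5 did not exceed 0.34 CPM, Otx2 2.12 CPM and Dnmt3b 17.4 CPM, against 94.9, 191 and 725 CPM on day 0 in WT#20D-17. All 6 markers of 2-cell-like cells were at or under 3 counts in those lines. Markers of germ cells summed to 44.2 to 93.8 CPM in WT#20D-17 and 3.49 to 15.0 CPM elsewhere. Of these 8 markers, 1, Tfap2c, was highest in WT#20D-17 on all 5 days, and it made up 51.1 of 59.0 CPM there on day 14. Ddx4 and Sycp3 went from 17.9 and 15.9 CPM on day 0 to 0.525 and 0.0525 CPM on day 14 in that line.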

How the data were processed

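Polyadenylated RNA of 4 iPSC lines on 5 days was read by stranded paired-end sequencing, 1 library per line and day. The authors deposited 1 table of RSEM expected counts, made per the labels with STAR 2.6.0c and RSEM 1.3.1 on mouse GRCm38. The strand setting of the counting is not given in the sources used here. Of all values 9.921% had decimals, mostly from shared reads, and Mybl2, Sall4, Gbx2 and Eras had them in over 10 libraries. Lin28a, Tfcp2l1, Tbx3, Sall4, Fbxo15, Tdh, Jarid2, Gbx2, Manba, Trim71 and Eras overlap annotated genes on the opposite strand. Expected counts were rounded. CPM use edgeR's TMM factors (0.909 to 1.05). Of the gene IDs, 179 had no symbol in the name table used.

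Tests used R 4.3.3 with edgeR 4.0.16 (quasi-likelihood, line and day as factors, or the exact test where named) and, as an alternative, DESeq2 1.42.0. The quasi-likelihood tests were fitted over genes that passed edgeR's filter on low counts, unless stated otherwise. The exact test was fitted without that filter over 33860 genes. DESeq2 was also fitted without it, over 33631 genes where all 20 libraries were used. It gave some genes no adjusted p, and its shares count those genes in the total. They are thus lower than shares of the genes with an adjusted p. Shares by the 3 kinds of test thus rest on different sets of genes. All were adjusted by Benjamini-Hochberg, and tests were checked on simulated data. The method named in the study for time courses was not installed. The line was a block because the labels name it for every library, and day-to-day deviations within a line correlated at 0.437 to 0.919 (median 0.718, 40 pairs). Members, lists and tests were chosen with earlier results of these data known. Values in every library are printed for Nanog, the 3 largest falls, the 3 largest rises or smallest changes from day 0 to day 14, and the member with the widest spread between lines on day 0. The last day is day 14 in titles and characteristics, and one protocol text of the labels gives another. Gene positions are from GENCODE on GRCm38 and promoters from RefSeq on GRCm38.p6.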

Additional observations from a re-analysis of the deposited data

Results flagged for a closer look

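Klf5 moved in opposite directions between the genotypes from day 0 to day 14. The mean change of log2(CPM + 1) was 0.90 in the 2 wild type lines and −1.06 in the 2 Nox4-/- lines, and each line followed its genotype. Klf5 went from 9.23 to 12.0 CPM in WT#1-4 and from 63.7 to 177 CPM in WT#20D-17, against 6.43 to 2.74 CPM in Nox4-/- #5-8 and 7.17 to 2.73 CPM in Nox4-/- #5-23. The genotype by day interaction over all 5 days did not pass by edgeR's quasi-likelihood test (adjusted p = 0.444), and by DESeq2 it passed. The difference in the change from day 0 to day 14 alone was not tested.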

How the results depend on the processing

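The count of members that changed over the days (9) became 14 with no filter on low counts, 1 with no replicate block, 16 at an adjusted p under 0.05, and 2 to 12 with each line left out. For day 14 against day 0 (17) it was 2 with no replicate block and 8 to 15 with each line left out (8 without Nox4-/- #5-23, 10 without Nox4-/- #5-8, 12 without WT#1-4, 15 without WT#20D-17). For day 3 against day 0 it was 0 to 1 with each line left out. For day 14 against day 7 (0) it was 1 with no filter, 2 by DESeq2 and 1 at 0.05. Between genotypes, leaving out lines gave 0 to 20 on day 0, 0 to 17 on day 14 and 0 to 8 in the interaction, and DESeq2 gave 8, 7 and 1. With days pooled (10), WT#20D-17 in place of WT#1-4 gave 27, both wild type lines 19, the line as the unit 0 and a threshold of 0.001 6. The directions of Lin28b, Sall1, Nr5a2 and Gbx2 turned with WT#20D-17 in place (log2 −1.34, −2.48, −0.82 and −1.58). With both wild type lines those of Lin28b, Sall1 and Gbx2 turned (−0.50, −1.56 and −0.64), as they did with the line as the unit (−0.50, −1.55 and −0.69). Members at or below 50% of day 0 on day 14 in all lines (4) became 2 at 25%, and 4 to 7 with each line left out. The count that differed between lines (31) was 28 by DESeq2 and 26 to 31 with each day left out. Over all genes 9828 of 19240 differed between lines, and 11180 of 33631 by DESeq2. With each day left out it was 7134 to 9959 of 18800 to 18995 genes. For the thresholds of 0.05 and 0.001 no shares over all genes are given. The causes were not tested, except that leaving out lines leaves fewer samples. Over all genes, day 14 against day 0 called 5133, 2413 with no replicate block and 2479 to 5830 with each line left out, and the day effect called 3163, 994 and 610 to 4002. DESeq2 called 5114 for the day effect, 225 against 31 for day 3 against day 0, 367 against 0 for day 7 against day 3, 355 against 2 for day 14 against day 7, 201 against 2 for the interaction, 292 against 2 for genotype on day 0 and 1052 against 3 on day 14. With no filter the single steps called 92, 2 and 23, the interaction 11, and genotype 4 on day 0 and 11 on day 14, and with no replicate block the steps and the interaction called 0. Leaving out each line gave 0 to 91, 0 to 43 and 0 to 8 for the steps, 0 to 666 for the interaction, 0 to 1710 for genotype on day 0 and 0 to 2903 on day 14. Upper quartile scaling gave 5 for genotype on day 14. With days pooled 1903 were called, against 8751 with WT#20D-17 in place, 4101 with both wild type lines and 0 with the line as the unit.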

Other observations

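In WT#20D-17, 4 members chosen after their values were seen stood higher again on day 14. Mybl2 went from 110.9 to 379 CPM, Fbxo15 from 10.7 to 59.2 CPM, Klf5 from 54.5 to 177 CPM and Zfp42 from 6.53 to 11.9 CPM. Klf4 went from 47.5 to 180 CPM between the same libraries. These are single libraries of 1 line, and the difference was not tested.

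The 7 neuroectoderm markers were mixed between lines. Of the 7, 2 were lowest in WT#20D-17 on all 5 days, against 15.2% of genes with a mean of at least 1 CPM. These were Sox1 and Pax6. Sox1 was at 0.210 to 11.3 CPM in WT#20D-17 and at 43.0 to 138 CPM in the other lines. Pax6 was at 0.388 to 1.94 CPM in WT#20D-17 and at 5.66 to 39.8 CPM in the other lines. Map2 was at 149 to 443 CPM in WT#1-4 and at most 48.0 CPM elsewhere, Zic1 was at 39.4 to 91.7 CPM in Nox4-/- #5-23 and at most 4.99 CPM elsewhere, and Nes was at 86.3 CPM in WT#20D-17 on day 3, above the other lines.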
